A study of Arabidopsis thaliana with 9 samples.

Results

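Leaves of Arabidopsis thaliana, ecotype Columbia, that had been exposed to silver ions (Ag+, 3 libraries) were compared with leaves of the control group named CK (3 libraries), by RNA sequencing and across every gene row of the table. The 6 libraries were chosen by the agent in their labels, out of 9 in the series. The other 3 came from leaves exposed to silver nanoparticles (AgNPs), and they entered the same statistical fit. Plants of all 3 groups grew for 6 days in MS medium, a mix of salts for plant culture, and shared ecotype and organ. CK was read as the group without silver because no other control is labelled. Neither the silver compound, its dose nor the length of exposure is stated. The RNA was pooled, and no label says whether libraries of 1 group stem from different cultures. What the p-values weigh is thus how these samples spread, which may be technical.

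Silver ions bind thiol groups of proteins and are toxic to plant cells. In plants they are also known for blocking ethylene perception, since they can take the place of the copper that ethylene receptors need. Ethylene is a gaseous hormone that acts on growth, senescence and defence, and leaf cells sense microbes through receptor kinases on their surface.

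Total counts were between 16884010 and 19282410 per library in Ag+ and between 17454525 and 19876151 in CK. Of 38202 gene rows, 12230 were at 0 in these 6 libraries, and 19889 had enough counts to be tested. On the first principal component of log2 CPM, the Ag+ libraries lay at 27.4 to 34.4 and the CK libraries at -55.5 to -38.9. The 7 leaf markers summed to 46109 to 50927 CPM in Ag+ and 26069 to 39017 CPM in CK, most of it from RBCS1A, a small subunit of Rubisco, and LHCB1.3, an antenna protein. The 15 tested root markers summed to 2225 to 2844 CPM in Ag+ and 1973 to 2101 CPM in CK, most of it from the beta-glucosidase gene BGLU23. In bulk leaf RNA, fewer cells of a type and less RNA per cell cannot be told apart.

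COR15A, a chloroplast protein of the cold response, rose in Ag+ leaves relative to CK leaves, as did antenna genes of the photosystems, among them LHCA1 and LHCB2.3. Of 22 lignin genes 7 rose, the laccases LAC4 and LAC17 among them, and of 20 mannose-binding lectins, a family chosen after its values had been seen, 7 rose. Called genes made up 5.57% of all genes tested. FLS2, the receptor of bacterial flagellin, fell, as did single further receptor kinases such as CERK1 and CRK39 and the exocyst subunits EXO70H1 and EXO70H2. Some of these calls were lost when 1 library was left out. The fold changes of the genes described ran from 1.48-fold to 68.5-fold.

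Levels are given as CPM, the counts scaled to a common library size and corrected for library composition, with the SD over 3 libraries after ± signs. Fold changes are Ag+ over CK with the standard error (SE) of the log2 value. A gene was called when its p-value in edgeR's quasi-likelihood test, adjusted by Benjamini-Hochberg over the 19889 genes tested, was under 0.05, and "rose" and "fell" are used of called genes only. In Ag+ leaves 701 genes rose and 407 fell relative to CK, together 1108 or 5.57% of the genes tested, 3.52% higher and 2.05% lower. At least 2-fold changes made up 413 of the rises (2.08% of the genes tested) and 265 of the falls (1.33%). The median log2 fold change over all genes tested was -0.01. Genes that rose held 15.9%, 17.3% and 14.0% of all counts in Ag+ 1 to 3, against 8.65%, 7.92% and 6.59% in CK 1 to 3. Genes that fell held 1.05%, 0.975% and 1.01% of the counts in Ag+ 1 to 3, against 2.61%, 2.35% and 2.41% in CK 1 to 3. These shares follow from how the genes were picked and are a description. In 4642 genes (23.3%) the Ag+ and CK libraries did not overlap, with 2523 (12.7%) higher and 2119 (10.7%) lower in Ag+.

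The number of calls depended on single libraries. It was 521 without Ag+ 1, 419 without Ag+ 2, 657 without Ag+ 3, 674 without CK 1 and 564 without CK 2, against 1292 without CK 3. Of the calls at 2-fold or more, 678 in all, 378 were left without Ag+ 1, 327 without Ag+ 2 and 427 without CK 2. Beside the count of a gene list below stand the percent of its tested members that were called, to be read against the 5.57% of all genes, the counts without each library whose removal moved it by over 1.5 times, and beside a gene the libraries without which it was not called.

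**Figure D1:**
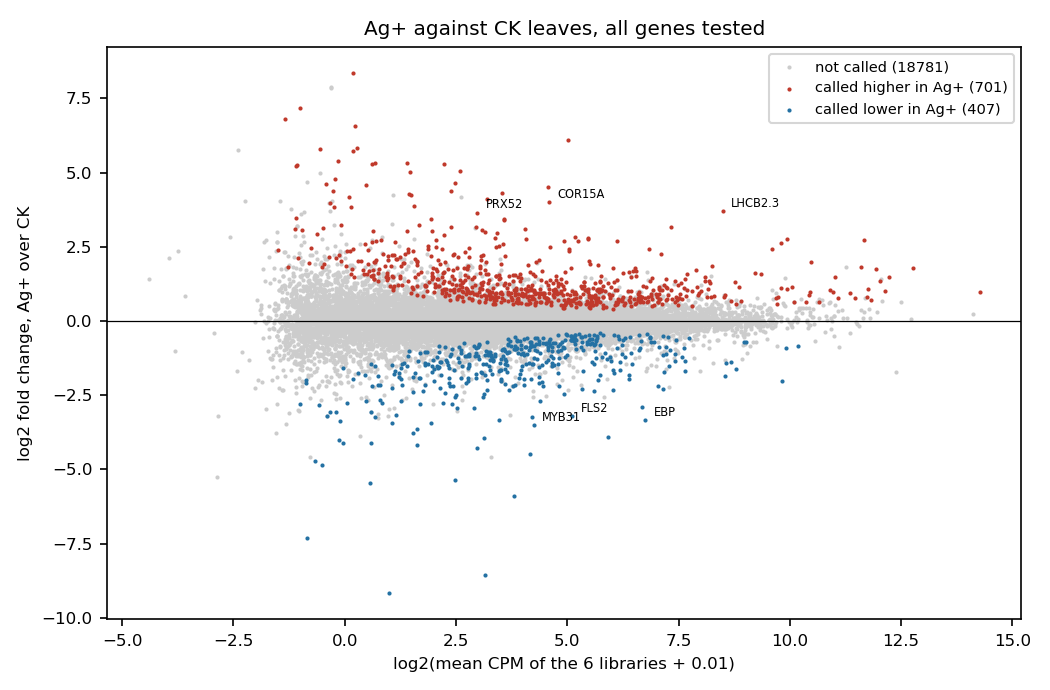
Log2 fold change of Ag+ over CK (y axis) against the log2 of the mean CPM of the 6 libraries plus 0.01 (x axis), with 1 point for each of the 19889 genes tested. Red points are the 701 genes called higher in Ag+ and blue points the 407 called lower, and 6 genes described in the text are labelled.

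Outside the genes described earlier for these data, the 10 largest rises held genes of cold, light, seeds and the cell wall. A gene counted here if it was called, did not overlap between the groups, averaged at least 5 CPM in the higher group and had over 3 counts in the lower one. COR15A, a chloroplast protein made in the cold that protects membranes during freezing, had 39.7, 22.4 and 74.6 CPM in Ag+ 1 to 3, against 1.49, 2.16 and 4.86 CPM in CK 1 to 3. All Ag+ values lay above all CK values, and the gene rose 16.002-fold (SE of the log2 value 0.59, adjusted p 0.00696), with the call kept whichever library was left out. AT1G52000, a protein of the mannose-binding lectin superfamily, had 17.7, 21.2 and 26.4 CPM in Ag+ 1 to 3, against 2.83, 2.11 and 1.13 CPM in CK 1 to 3. It rose 10.7-fold (log2 fold change 3.43, SE 0.29, adjusted p 0.000409). PRX52, a class III peroxidase of the kind that links lignin units in the wall, had 28.5, 6.06 and 9.44 CPM in Ag+ 1 to 3, against 1.14, 1.31 and 1.02 CPM in CK 1 to 3. The groups did not overlap, Ag+ 1 was the highest of the Ag+ libraries, and the rise was 12.6-fold (log2 fold change 3.65, SE 0.62, adjusted p 0.012). AT1G19960, annotated as a transcription factor, rose 10.8-fold, with 7.04 ± 1.56 CPM in Ag+ and 0.646 ± 0.295 CPM in CK (log2 fold change 3.43, SE 0.41, adjusted p 0.00211).

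3 further rises were lost without single libraries. LHCB2.3, a chlorophyll-binding antenna protein of photosystem II, had 847, 897 and 258 CPM in Ag+ 1 to 3, against 92.2, 42.9 and 18.9 CPM in CK 1 to 3, a 13.0-fold rise (log2 fold change 3.70, SE 0.73, adjusted p 0.0222) that was lost without Ag+ 1, Ag+ 2 or CK 2 (adjusted p 0.0664 to 0.0882). YUC9, an enzyme of auxin synthesis, had 4.76, 1.83 and 9.03 CPM in Ag+ 1 to 3, against 0.447, 0.114 and 0.205 CPM in CK 1 to 3. It rose 19.5-fold (log2 fold change 4.29, SE 0.87, adjusted p 0.0247) and was no longer called without Ag+ 1, Ag+ 3, CK 1, CK 2 or CK 3 (adjusted p 0.0513 to 0.0947). MYB47, a MYB transcription factor, rose 14.6-fold, with 5.46 ± 2.52 CPM in Ag+ and 0.368 ± 0.415 CPM in CK (log2 fold change 3.87, SE 0.75, adjusted p 0.0195), and lost the call without Ag+ 1, Ag+ 3 or CK 2 (adjusted p 0.0532 to 0.0798).

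The remaining 3 were uneven among the Ag+ libraries, and 2 of them are known from seeds. TIP3;1, an aquaporin of seed storage vacuoles, had 5.09, 9.67 and 1.23 CPM in Ag+ 1 to 3, against 0, 0.0569 and 0.409 CPM in CK 1 to 3. Ag+ 2 was the highest and Ag+ 3 the lowest of the Ag+ libraries, all above CK, and the rise was 32.7-fold (log2 fold change 5.03, SE 1.06, adjusted p 0.0279, and 0.0669 with the replicate block). It was not called without Ag+ 1, Ag+ 2, CK 1 or CK 2 (adjusted p 0.0707 to 0.102). PER1, a peroxiredoxin known from seeds, had 3.85, 10.1 and 1.99 CPM in Ag+ 1 to 3, against 0.198, 0.0569 and 0.563 CPM in CK 1 to 3. PER1 rose 18.8-fold (log2 fold change 4.23, SE 0.79, adjusted p 0.0173), a call lost without CK 1 or CK 2 (adjusted p 0.0597 to 0.0613). BGLU19, a beta-glucosidase, showed the same order of libraries, with 4.89, 9.22 and 1.29 CPM in Ag+ 1 to 3, against 0, 0.114 and 0.256 CPM in CK 1 to 3. Its 39.8-fold rise (log2 fold change 5.32, SE 1.10, adjusted p 0.0267, and 0.0523 with the replicate block) was not called without Ag+ 1, Ag+ 2, CK 1, CK 2 or CK 3 (adjusted p 0.0514 to 0.096).

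The 10 largest falls chosen in the same way held transcription factors, exocyst subunits and a receptor of microbes, of which the last are described with the surface receptors. EBP, a transcription factor of the ethylene response factor family, had 22.0, 21.6 and 14.5 CPM in Ag+ 1 to 3, against 176, 256 and 159 CPM in CK 1 to 3. Every Ag+ value was far under every CK value, and the gene fell 10.2-fold (log2 fold change -3.35, SE 0.22, adjusted p 8.59e-05). MYB31, a MYB transcription factor, had 3.72, 2.67 and 2.93 CPM in Ag+ 1 to 3, against 57.4, 32.6 and 14.9 CPM in CK 1 to 3. MYB31 fell 11.3-fold (log2 fold change -3.50, SE 0.44, adjusted p 0.00351). AHP1, which passes phosphate from cytokinin receptors to response regulators, had 0.392, 0.500 and 0.469 CPM in Ag+ 1 to 3, against 4.96, 6.26 and 5.98 CPM in CK 1 to 3. AHP1 fell 12.4-fold (log2 fold change -3.63, SE 0.58, adjusted p 0.00806). The 3 Ag+ values of AHP1 were close together, as were the 3 CK values. HEC1, a basic helix-loop-helix factor known from flower and meristem development, fell 7.55-fold, with 1.73 ± 0.969 CPM in Ag+ and 13.1 ± 5.87 CPM in CK (log2 fold change -2.92, SE 0.42, adjusted p 0.00548). AT1G36060, annotated with an Integrase-type DNA-binding domain, fell 10.02-fold, with 2.00 ± 0.337 CPM in Ag+ and 20.0 ± 5.96 CPM in CK (log2 fold change -3.32, SE 0.34, adjusted p 0.000746), and AT5G17780, an alpha/beta-hydrolase, fell 10.7-fold, with 0.655 ± 0.521 CPM in Ag+ and 6.98 ± 0.540 CPM in CK (log2 fold change -3.42, SE 0.61, adjusted p 0.0129). AT1G22810, also of the Integrase-type family, had 0.196, 0.278 and 0.469 CPM in Ag+ 1 to 3, against 12.0, 1.37 and 4.30 CPM in CK 1 to 3. Its 18.2-fold fall (log2 fold change -4.19, SE 0.88, adjusted p 0.0278) was lost without Ag+ 1, Ag+ 2 or Ag+ 3 (adjusted p 0.0785 to 0.11).

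**Figure D2:**
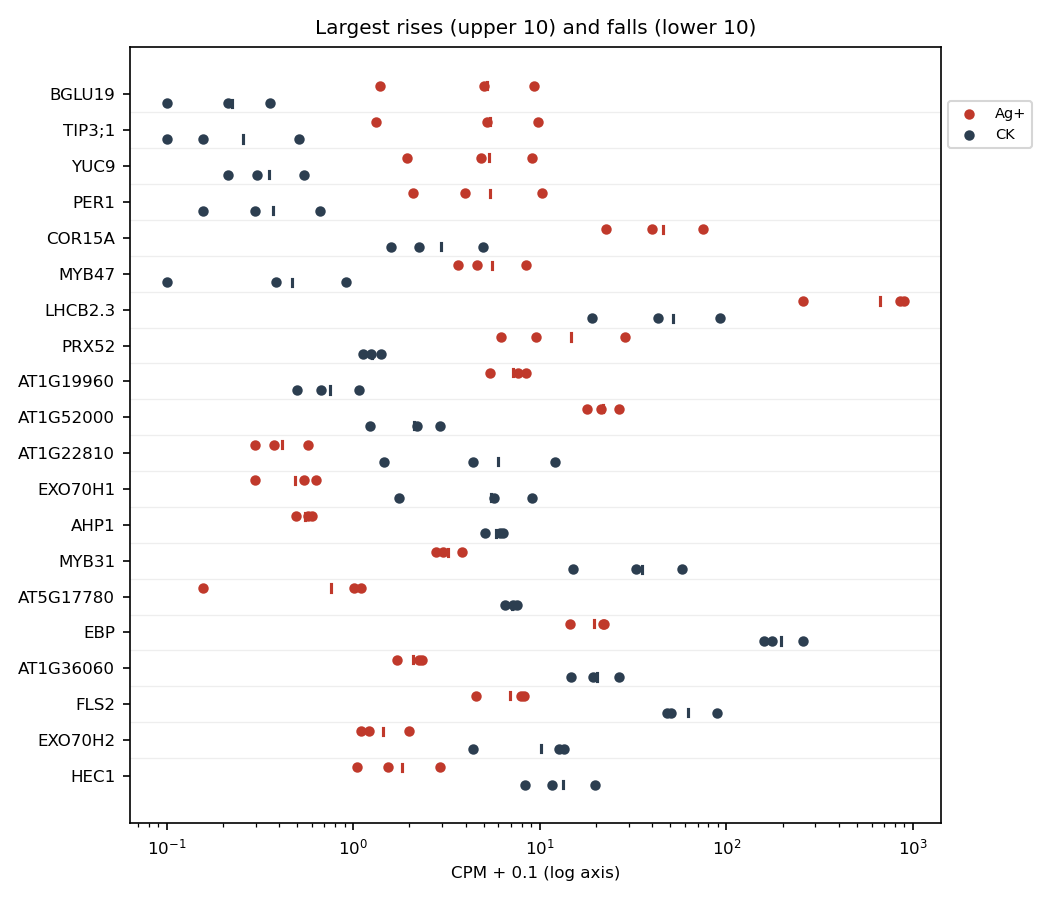
CPM plus 0.1 on a log axis (x axis) of the 10 genes with the largest rises (upper rows) and the 10 with the largest falls (lower rows) by the naming rule. Each point is 1 library, red for Ag+ above and dark for CK below it, and vertical ticks are the means of 3 libraries. In no row do the Ag+ and CK points overlap, which the choice of genes required.

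By gain of mean CPM among such genes, the 6 that added most RNA were all antenna proteins of the photosystems. LHCB1.3 averaged 26169.9 ± 4109 CPM in Ag+ and 13364 ± 3539 CPM in CK (log2 fold change 0.97, SE 0.24, adjusted p 0.0438), and its call was lost without any 1 of the 9 libraries but AgNPs 1 (adjusted p 0.0597 to 0.153). LHCA1, an antenna of photosystem I, had 8053, 7958 and 5166 CPM in Ag+ 1 to 3, against 3178, 2741 and 1683 CPM in CK 1 to 3. It rose 2.79-fold (log2 fold change 1.48, SE 0.27, adjusted p 0.0136), a call lost without Ag+ 1 or Ag+ 2 (adjusted p 0.0573 to 0.0617). LHB1B2, LHB1B1 and LHCB3 rose 3.48-fold, 6.58-fold and 3.56-fold, each not called without Ag+ 1, Ag+ 2 or CK 2 (adjusted p of up to 0.0939, 0.0899 and 0.0845). LHCA2 rose 2.01-fold, a call lost without Ag+ 1 or Ag+ 2 (adjusted p 0.0664 to 0.0694). In each of the 6 genes CK 3 had the lowest value of all 6 libraries. Reads of the near-identical LHCB1 copies, LHB1B1, LHB1B2 and LHCB1.3 among them, may have been split by the counting, so their single values are uncertain.

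Among the largest losses of mean CPM were genes of methionine metabolism, of defence and of growth. MTO3, an S-adenosylmethionine synthetase, had 870.5, 791 and 827 CPM in Ag+ 1 to 3, against 1369, 1436 and 1645 CPM in CK 1 to 3. MTO3 fell 1.79-fold (log2 fold change -0.84, SE 0.12, adjusted p 0.0049). S-adenosylmethionine is the methyl donor of the cell and a precursor of ethylene. AZI1, a lipid-transfer-type protein that primes systemic defence, had 237, 139 and 115 CPM in Ag+ 1 to 3, against 681, 579 and 504 CPM in CK 1 to 3. AZI1 fell 3.59-fold (log2 fold change -1.84, SE 0.28, adjusted p 0.00696). Its relative EARLI1 fell 3.06-fold, with 218 ± 89.4 CPM in Ag+ and 667 ± 80.1 CPM in CK (log2 fold change -1.62, SE 0.26, adjusted p 0.00967), a call lost without Ag+ 2 (adjusted p 0.0512). GASA14, a small secreted protein of a gibberellin-regulated family, fell 2.64-fold, with 209 ± 40.5 CPM in Ag+ and 552 ± 136 CPM in CK (log2 fold change -1.40, SE 0.21, adjusted p 0.00547), and AT1G27020, of no annotated function, fell 2.60-fold (log2 fold change -1.38, SE 0.19, adjusted p 0.00453).

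Several genes for sensing microbes at the cell surface fell in Ag+ leaves. FLS2, the receptor kinase that binds bacterial flagellin, had 8.16, 7.78 and 4.46 CPM in Ag+ 1 to 3, against 88.9, 50.3 and 47.8 CPM in CK 1 to 3. The Ag+ values were far under the CK values, and FLS2 fell 9.17-fold (log2 fold change -3.20, SE 0.42, adjusted p 0.00449), a call kept whichever library was left out. CERK1, a receptor kinase with LysM domains needed to sense chitin, had 25.3, 27.9 and 26.1 CPM in Ag+ 1 to 3, against 56.0, 40.0 and 40.6 CPM in CK 1 to 3. It fell 1.72-fold (log2 fold change -0.78, SE 0.15, adjusted p 0.0171), a call lost without Ag+ 1, Ag+ 2 or Ag+ 3 (adjusted p 0.0582 to 0.0693). IOS1, a kinase that joins the FLS2 complex, had 70.9, 33.3 and 40.7 CPM in Ag+ 1 to 3, against 301, 187 and 217 CPM in CK 1 to 3. Its 4.87-fold fall (log2 fold change -2.29, SE 0.52, adjusted p 0.0374, and 0.0895 with the replicate block) was lost without any 1 of the 9 libraries but AgNPs 1 (adjusted p 0.0518 to 0.136). SD1-29, the receptor of bacterial hydroxy fatty acids, fell 3.18-fold, with 19.5 ± 8.44 CPM in Ag+ and 61.9 ± 16.6 CPM in CK (log2 fold change -1.67, SE 0.38, adjusted p 0.0362, and 0.0667 with the replicate block), and was not called without Ag+ 2, Ag+ 3, CK 1, CK 2, CK 3, AgNPs 2 or AgNPs 3 (adjusted p 0.0517 to 0.135).

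The receptor kinase families were counted by their annotation. Of 53 lectin receptor kinases tested, 0 rose and 7 fell (13.2% called, against 5.57% of all genes tested, median log2 fold change -0.29). The count was 2 without Ag+ 2 or Ag+ 3 and 4 without Ag+ 1 or CK 1. HLECRK, a lectin receptor kinase, had 4.76, 3.72 and 3.17 CPM in Ag+ 1 to 3, against 17.6, 9.79 and 11.9 CPM in CK 1 to 3. HLECRK fell 3.37-fold (log2 fold change -1.75, SE 0.27, adjusted p 0.0063). LECRKA4.1 had 8.61, 6.28 and 9.14 CPM in Ag+ 1 to 3, against 49.97, 13.7 and 44.9 CPM in CK 1 to 3. Its 4.52-fold fall (log2 fold change -2.18, SE 0.42, adjusted p 0.0207) was lost without Ag+ 1, Ag+ 2, Ag+ 3 or CK 1 (adjusted p 0.0517 to 0.0898). Of 35 cysteine-rich receptor kinases, 1 rose and 4 fell (14.3% called, median -0.20), and the count was 3 without Ag+ 2 or Ag+ 3. CRK39 had 0.457, 0.278 and 0.586 CPM in Ag+ 1 to 3, against 6.004, 1.93 and 3.99 CPM in CK 1 to 3. CRK39 fell 8.98-fold (log2 fold change -3.17, SE 0.49, adjusted p 0.00677), and CRK29 fell 3.14-fold, with 35.0 ± 3.19 CPM in Ag+ and 109.7 ± 39.1 CPM in CK (log2 fold change -1.65, SE 0.26, adjusted p 0.00852). CRK4 went the other way, with 3.79 ± 0.854 CPM in Ag+ and 0.581 ± 0.400 CPM in CK, a 6.39-fold rise (log2 fold change 2.68, SE 0.44, adjusted p 0.00878). Among 142 leucine-rich repeat kinases, 2 rose and 6 fell, FLS2 and IOS1 among them, with a median of 0.04, and the count was 1 without Ag+ 1, Ag+ 3 or CK 1, 2 without Ag+ 2 or CK 2 and 3 without AgNPs 2 or AgNPs 3. At 5.63% called that family was near the 5.57% of all genes. The lectin and leucine-rich repeat families were added to the list after their values had been seen.

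Single genes of secretion, calcium signalling and immunity fell as well. EXO70H1 and EXO70H2 are subunits of the exocyst, which tethers secretory vesicles to the plasma membrane. EXO70H2 had 1.89, 1.000 and 1.11 CPM in Ag+ 1 to 3, against 13.4, 4.27 and 12.6 CPM in CK 1 to 3. EXO70H2 fell 7.60-fold (log2 fold change -2.93, SE 0.44, adjusted p 0.00709). EXO70H1 had 0.196, 0.444 and 0.528 CPM in Ag+ 1 to 3, against 5.61, 1.65 and 8.95 CPM in CK 1 to 3, and its 13.5-fold fall (log2 fold change -3.76, SE 0.66, adjusted p 0.0131) was lost without Ag+ 1 or Ag+ 2 (adjusted p 0.0619 to 0.0628). AT3G07195, of the RIN4 family of immune regulators, fell 6.45-fold, with 5.65 ± 2.04 CPM in Ag+ and 36.3 ± 26.7 CPM in CK (log2 fold change -2.69, SE 0.51, adjusted p 0.0192), and lost the call without Ag+ 2 or Ag+ 3 (adjusted p 0.0737 to 0.0838). AT5G44910, a TIR-domain protein, fell 5.47-fold, with 9.37 ± 2.37 CPM in Ag+ and 51.1 ± 28.2 CPM in CK (log2 fold change -2.45, SE 0.41, adjusted p 0.0115), a call lost without Ag+ 2 (adjusted p 0.0563). CAM2, a calmodulin, had 46.7, 55.3 and 42.6 CPM in Ag+ 1 to 3, against 108, 86.3 and 80.3 CPM in CK 1 to 3. CAM2 fell 1.90-fold (log2 fold change -0.92, SE 0.15, adjusted p 0.00763). FLOT1, a flotillin of plasma membrane domains, fell 2.75-fold, with 9.86 ± 1.07 CPM in Ag+ and 27.1 ± 10.6 CPM in CK (log2 fold change -1.46, SE 0.26, adjusted p 0.012), a call lost without Ag+ 2 (adjusted p 0.0651). AT3G07195, AT5G44910, CAM2, FLOT1 and CERK1 were named after their values had been seen.

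In other defence families the called genes lay in both directions or were higher in Ag+. Of 123 intracellular disease resistance receptors, 2 rose and 2 fell (median -0.12), 3.25% against 5.57% of all genes. The count was 0 without Ag+ 2, 1 without Ag+ 1 or Ag+ 3 and 2 without CK 1, CK 2, AgNPs 2 or AgNPs 3. Of 42 WRKY transcription factors, 3 rose and 3 fell (14.3% called, median -0.40), and the count was 3 without Ag+ 1 and 10 without AgNPs 1. WRKY45 fell 4.54-fold, a call lost without Ag+ 2 (adjusted p 0.0788). WRKY57 fell 2.23-fold, a call lost without Ag+ 2 or Ag+ 3 (adjusted p 0.0524 to 0.0636), and WRKY27 fell 3.92-fold, a call lost without Ag+ 1 or Ag+ 2 (adjusted p 0.054 to 0.0619). WRKY8 had 5.94, 2.67 and 4.75 CPM in Ag+ 1 to 3, against 1.19, 0.683 and 0.767 CPM in CK 1 to 3. WRKY8 rose 4.99-fold (log2 fold change 2.32, SE 0.45, adjusted p 0.0173), a call lost without Ag+ 1 or CK 2 (adjusted p 0.0664 to 0.0714). Of 16 defensins and thionins tested out of 252, 3 rose and 0 fell (18.8% called), and no removal of 1 library moved the count by over 1.5 times. AT1G66100, a thionin described earlier for these data, had 58.6, 70.6 and 62.7 CPM in Ag+ 1 to 3, against 1.09, 1.08 and 0.614 CPM in CK 1 to 3. It rose 68.5-fold (log2 fold change 6.10, SE 0.32, adjusted p 4.47e-05), a call kept whichever library was left out. THI2.2, a further thionin, had 17.2, 37.2 and 33.5 CPM in Ag+ 1 to 3, against 5.31, 3.93 and 3.73 CPM in CK 1 to 3. THI2.2 rose 6.76-fold (log2 fold change 2.76, SE 0.35, adjusted p 0.00328). Of 16 chitinases 2 rose and 0 fell (12.5% called), and the count was 0 without CK 1 or CK 2 and 1 without Ag+ 1, Ag+ 2, AgNPs 2 or AgNPs 3. TI1, a trypsin inhibitor, was the 1 protease inhibitor of 15 that rose (6.67% called, near the 5.57% of all genes). It had 119.9, 57.9 and 54.6 CPM in Ag+ 1 to 3, against 10.8, 11.7 and 11.3 CPM in CK 1 to 3, with Ag+ 1 highest, and rose 6.88-fold (log2 fold change 2.78, SE 0.32, adjusted p 0.0022).

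**Figure D3:**
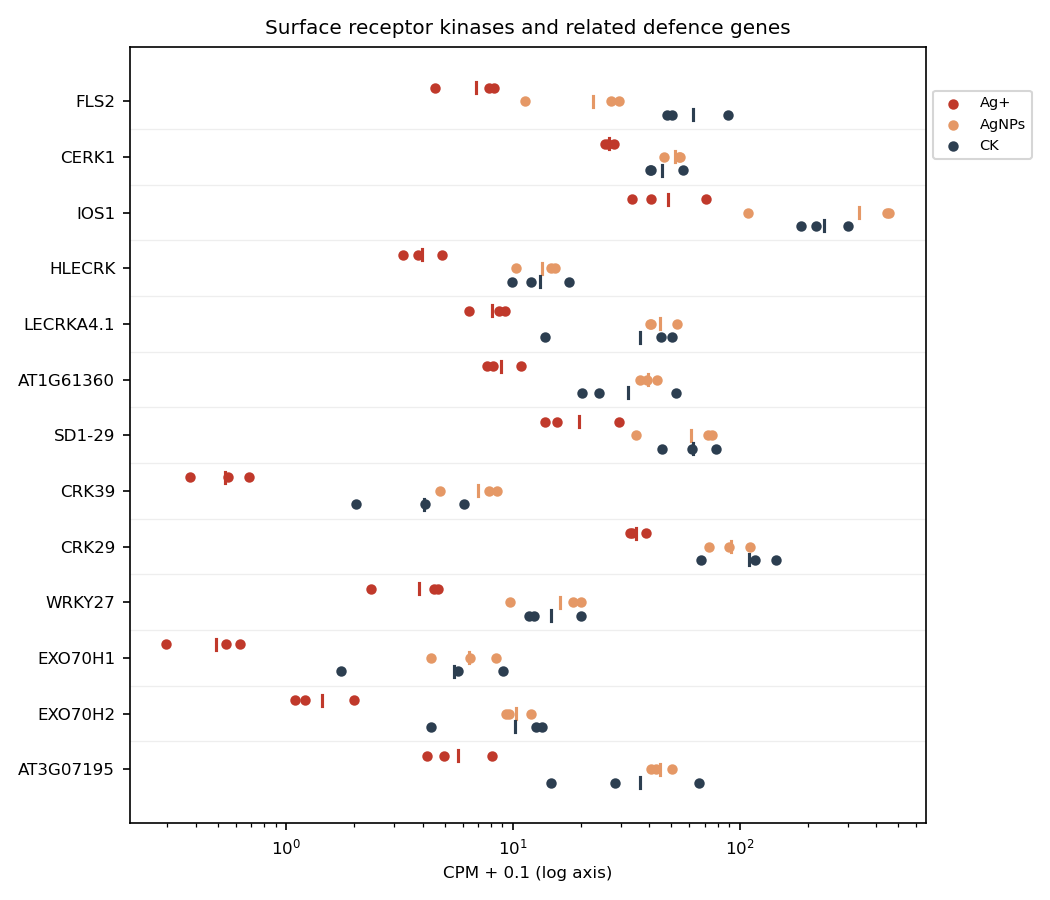
CPM plus 0.1 on a log axis (x axis) of 13 surface receptor kinases and related defence genes. Each point is 1 library, red for Ag+, orange for AgNPs and dark for CK from top to bottom of a row, and ticks are means of 3 libraries. The Ag+ points lie left of all CK points in every row. The genes were picked among those called lower in Ag+, so this pattern follows from the choice.

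Several of these genes were lower in Ag+ than in AgNPs leaves as well. Ag+ against AgNPs, tested directly in the same fit, called 136 genes (0.684%), of which 35 were higher (0.176%) and 101 lower (0.508%) in Ag+. Both comparisons share the Ag+ libraries, so their values are given side by side only. CRK39 had 0.457, 0.278 and 0.586 CPM in Ag+ 1 to 3 and 4.67, 8.41 and 7.73 CPM in AgNPs 1 to 3 (log2 fold change -3.97, SE 0.49, adjusted p 0.0212). EXO70H2 had 1.89, 1.000 and 1.11 CPM in Ag+ and 9.47, 12.0 and 9.22 CPM in AgNPs (log2 fold change -2.94, SE 0.44, adjusted p 0.035), and HLECRK had 4.76, 3.72 and 3.17 CPM in Ag+ and 10.2, 14.6 and 15.2 CPM in AgNPs (log2 fold change -1.78, SE 0.27, adjusted p 0.035). The Ag+ values lay under the AgNPs values in all 3 genes. CERK1 had 25.3, 27.9 and 26.1 CPM in Ag+ and 46.2, 53.9 and 54.4 CPM in AgNPs (log2 fold change -0.96, SE 0.15, adjusted p 0.035). FLS2 had 8.16, 7.78 and 4.46 CPM in Ag+ and 11.2, 29.2 and 27.1 CPM in AgNPs, and that difference was not called (log2 fold change -1.73, SE 0.41, adjusted p 0.101), nor was that of IOS1 (log2 fold change -2.80, SE 0.53, adjusted p 0.0544). In AgNPs against CK, which called 660 genes (3.32%) and shares the CK libraries with Ag+ against CK, FLS2 was not called either (log2 fold change -1.47, adjusted p 0.0856), nor were CERK1 (log2 fold change 0.18, adjusted p 0.615) and CRK39 (log2 fold change 0.80, adjusted p 0.336).

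6 runs of at least 3 neighbouring tested genes changed in the same direction. On chromosome 1, the mannose-binding lectin gene AT1G52000 rose together with MBP2 and MBP1, proteins that bind myrosinase, the enzyme that splits glucosinolates. MBP2 had 10.2, 7.72 and 10.5 CPM in Ag+ 1 to 3, against 1.19, 0.512 and 1.43 CPM in CK 1 to 3. MBP2 rose 8.92-fold (log2 fold change 3.16, SE 0.31, adjusted p 0.000683), and MBP1 rose 5.83-fold, with 6.23 ± 3.06 CPM in Ag+ and 1.06 ± 0.0679 CPM in CK (log2 fold change 2.54, SE 0.38, adjusted p 0.00582). Over the whole mannose-binding lectin family, added after its values had been seen, 7 of 20 members rose and 1 fell (40.0% called, median 0.70), and the count was 5 without Ag+ 3 or CK 2. JR1, a jasmonate-responsive lectin, had 127, 160.3 and 143 CPM in Ag+ 1 to 3, against 67.5, 51.9 and 71.3 CPM in CK 1 to 3. JR1 rose 2.26-fold (log2 fold change 1.17, SE 0.15, adjusted p 0.00238).

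Also on chromosome 1, 3 glycosyltransferase genes of the UGT85A group rose. UGT85A5 had 41.4, 37.1 and 46.5 CPM in Ag+ 1 to 3, against 7.29, 6.43 and 8.49 CPM in CK 1 to 3, tight in each group, and rose 5.62-fold (log2 fold change 2.49, SE 0.14, adjusted p 4.47e-05). UGT85A2 rose 1.75-fold, with 131 ± 12.2 CPM in Ag+ and 74.9 ± 4.95 CPM in CK (log2 fold change 0.81, SE 0.11, adjusted p 0.00453), and UGT85A3 rose 3.91-fold (log2 fold change 1.97, SE 0.39, adjusted p 0.0196), a call lost without Ag+ 1, Ag+ 3 or CK 1 (adjusted p 0.0658 to 0.0704). UGT85A5 was also higher in Ag+ than in AgNPs, where it had 25.0, 24.7 and 24.8 CPM (log2 fold change 0.75, SE 0.13, adjusted p 0.0459). In the run of GL22, HFR1 and AT1G02350, GL22, a germin-like protein, had 43.7, 34.5 and 27.5 CPM in Ag+ 1 to 3, against 14.5, 15.7 and 10.6 CPM in CK 1 to 3. GL22 rose 2.60-fold (log2 fold change 1.38, SE 0.20, adjusted p 0.00492). HFR1 rose 3.61-fold and AT1G02350, annotated as protoporphyrinogen oxidase-like, rose 2.08-fold (log2 fold change 1.05, SE 0.26, adjusted p 0.0467, and 0.0568 with the replicate block). HFR1 was not called without Ag+ 1, Ag+ 2, Ag+ 3 or CK 2 (adjusted p 0.0518 to 0.109), and AT1G02350 was not called without Ag+ 1, Ag+ 2, Ag+ 3, CK 2, CK 3, AgNPs 2 or AgNPs 3 (adjusted p 0.0751 to 0.152). A further run on this chromosome, lower in Ag+, was made of the lectin receptor kinases AT1G61360, AT1G61370 and SD1-29. AT1G61360 had 10.8, 8.06 and 7.56 CPM in Ag+ 1 to 3, against 52.4, 20.1 and 23.8 CPM in CK 1 to 3, with CK 1 highest, and fell 3.66-fold (log2 fold change -1.87, SE 0.34, adjusted p 0.0154), a call lost without Ag+ 2 or Ag+ 3 (adjusted p 0.061 to 0.0738). AT1G61370 fell 3.76-fold (log2 fold change -1.91, SE 0.37, adjusted p 0.0173), a call lost without Ag+ 1, Ag+ 2 or Ag+ 3 (adjusted p 0.0654 to 0.0754).

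On chromosome 4, 5 neighbouring genes of the thioredoxin superfamily fell, AT4G15660, AT4G15670, AT4G15680, AT4G15690 and AT4G15700. AT4G15690 had 0.783, 1.06 and 0.938 CPM in Ag+ 1 to 3, against 5.26, 4.72 and 4.55 CPM in CK 1 to 3. AT4G15690 fell 5.19-fold (log2 fold change -2.38, SE 0.25, adjusted p 0.000948). AT4G15660 had 0.261, 0.333 and 0.293 CPM in Ag+ 1 to 3, against 3.18, 2.90 and 2.56 CPM in CK 1 to 3. AT4G15660 fell 9.50-fold (log2 fold change -3.25, SE 0.43, adjusted p 0.00309). Both kept the call with any library left out. AT4G15670, AT4G15680 and AT4G15700 fell 6.54-fold, 2.33-fold and 2.84-fold, and each lost the call without Ag+ 3, among other libraries, with an adjusted p of up to 0.0872, 0.0989 and 0.107. AT4G15700 had an adjusted p of 0.0506 with the replicate block. No library of either group was above 6.40 CPM in these 5 genes, and neighbouring copies that are alike may share reads. On chromosome 5, VSP2, VSP1 and BZIP9 rose. VSP2 averaged 45.7 ± 8.78 CPM in Ag+ and 1.96 ± 1.19 CPM in CK. VSP1, like VSP2 a vegetative storage protein, had 8.22, 8.28 and 6.57 CPM in Ag+ 1 to 3, against 1.09, 0.455 and 2.66 CPM in CK 1 to 3. VSP1 rose 5.42-fold (log2 fold change 2.44, SE 0.45, adjusted p 0.016). BZIP9, a leucine zipper transcription factor, had 29.0, 28.9 and 20.5 CPM in Ag+ 1 to 3, against 15.3, 15.7 and 13.9 CPM in CK 1 to 3. BZIP9 rose 1.75-fold (log2 fold change 0.81, SE 0.17, adjusted p 0.0248). VSP1 was not called without Ag+ 1, Ag+ 2 or CK 1 (adjusted p 0.0563 to 0.0634), and BZIP9 was not called without Ag+ 1, Ag+ 2, CK 1, CK 2 or CK 3 (adjusted p 0.0521 to 0.101). Reads of the similar VSP copies may have been shared.

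The lignin genes that changed were all higher in Ag+ leaves. Lignin stiffens the secondary walls of water-conducting cells. It is built from phenylalanine through the phenylpropanoid enzymes and joined in the wall by laccases and peroxidases. Of 22 lignin genes tested, 7 rose and 0 fell (31.8% called, median log2 fold change 0.50), and the count was 3 without CK 2 and 4 without Ag+ 1 or CK 1. The list summed to 2079.9 to 2894 CPM in Ag+ and 1469 to 1907 CPM in CK. LAC4, a laccase of xylem lignin, had 66.0, 46.2 and 46.4 CPM in Ag+ 1 to 3, against 15.6, 15.0 and 15.3 CPM in CK 1 to 3. The lowest Ag+ value was well over the highest CK value, and LAC4 rose 3.45-fold (log2 fold change 1.79, SE 0.16, adjusted p 0.00042). LAC17, the laccase that acts beside LAC4, had 26.5, 22.4 and 23.7 CPM in Ag+ 1 to 3, against 11.5, 9.62 and 10.9 CPM in CK 1 to 3. LAC17 rose 2.26-fold (log2 fold change 1.18, SE 0.13, adjusted p 0.00103). Of the enzymes that make the units, HCT had 189, 146 and 167 CPM in Ag+ 1 to 3, against 82.3, 75.4 and 109 CPM in CK 1 to 3. HCT rose 1.88-fold (log2 fold change 0.91, SE 0.16, adjusted p 0.0113). 4CL1, which activates coumaric acid, rose 2.07-fold, with 216 ± 62.6 CPM in Ag+ and 104 ± 16.6 CPM in CK (log2 fold change 1.05, SE 0.20, adjusted p 0.0159), a call lost without CK 2 (adjusted p 0.0633). LAC11, PAL3 and PAL4 rose 2.01-fold, 1.52-fold and 1.99-fold. LAC11 was not called without Ag+ 1, Ag+ 2, CK 1 or CK 2 (adjusted p 0.0584 to 0.0842), PAL3 was not called without Ag+ 1, Ag+ 3, CK 1, CK 2, AgNPs 2 or AgNPs 3 (adjusted p 0.0584 to 0.115), and PAL4 was not called without Ag+ 1, Ag+ 2, Ag+ 3, CK 1, CK 2, CK 3 or AgNPs 3 (adjusted p 0.056 to 0.153).

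Single genes of the secondary wall and of xylem rose as well. Of 14 cellulose genes, 3 rose and 0 fell (21.4% called), while the list's median was -0.14, and the count was 0 without Ag+ 1, Ag+ 2, Ag+ 3, CK 2 or AgNPs 3 and 1 without CK 1 or AgNPs 2. The whole list summed to 2717 to 2889 CPM in Ag+ and 3171 to 3460.3 CPM in CK, lower in every Ag+ library, and 4 members were higher and 5 lower in Ag+ without overlap of the groups. Over all genes tested, 12.7% were higher and 10.7% lower in Ag+ without overlap. The 3 called were CESA4 and CESA8, cellulose synthases of the secondary wall, and COBL4, also of the secondary wall. CESA4 had 23.9, 24.9 and 21.5 CPM in Ag+ 1 to 3, against 14.3, 10.8 and 16.4 CPM in CK 1 to 3. CESA4 rose 1.69-fold (log2 fold change 0.76, SE 0.17, adjusted p 0.0322), a call lost without Ag+ 1, Ag+ 2, Ag+ 3, CK 1, CK 2 or AgNPs 3 (adjusted p 0.0556 to 0.115). CESA8 rose 1.64-fold (log2 fold change 0.72, SE 0.16, adjusted p 0.0287), a call lost without Ag+ 1, Ag+ 2, Ag+ 3, CK 2, CK 3, AgNPs 2 or AgNPs 3 (adjusted p 0.0526 to 0.105), and COBL4 rose 2.02-fold (log2 fold change 1.01, SE 0.25, adjusted p 0.0449), a call lost without Ag+ 1, Ag+ 2, Ag+ 3, CK 1, CK 2, AgNPs 2 or AgNPs 3 (adjusted p 0.0569 to 0.151). XCP2, a peptidase of xylem vessels named after its values had been seen, had 76.4, 77.6 and 68.2 CPM in Ag+ 1 to 3, against 35.7, 36.0 and 36.7 CPM in CK 1 to 3. XCP2 rose 2.05-fold (log2 fold change 1.04, SE 0.11, adjusted p 0.000765). XYP1, a proteoglycan of xylem development, rose 2.06-fold, with 19.3 ± 1.45 CPM in Ag+ and 9.38 ± 0.457 CPM in CK (log2 fold change 1.04, SE 0.12, adjusted p 0.00165). Both kept the call with any library left out. XCP2 and XYP1, known from xylem, moved with the called lignin and cellulose genes but not with the cellulose list as a whole. Their part in those counts was not tested.

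**Figure D4:**
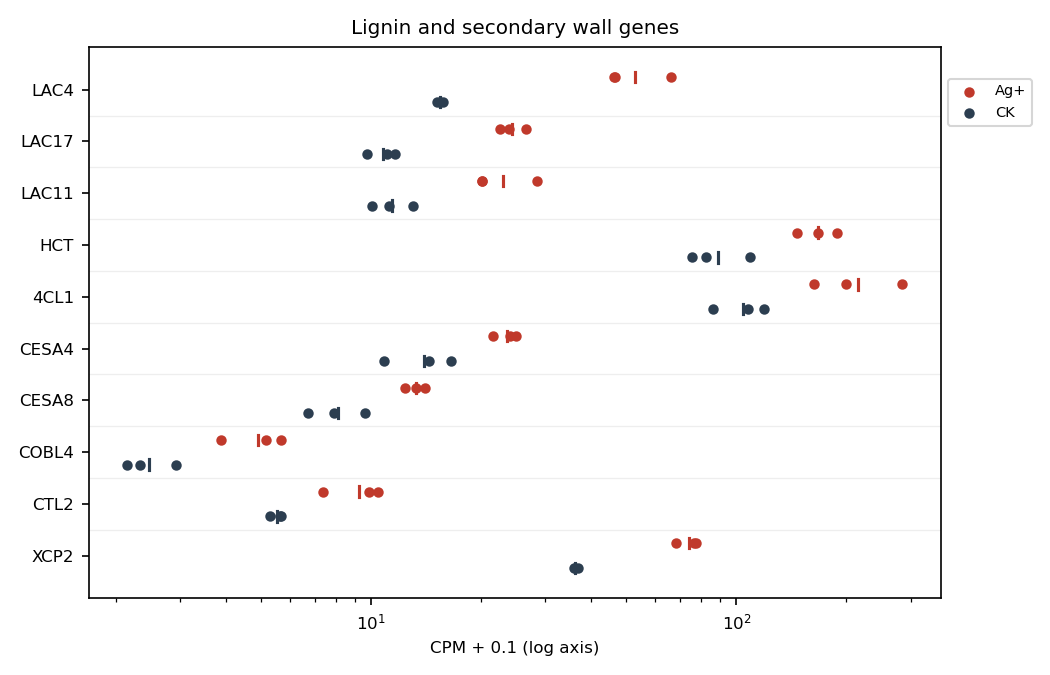
CPM plus 0.1 on a log axis (x axis) of 10 genes of lignin, secondary walls and xylem. Each point is 1 library, red for Ag+ above and dark for CK below, with ticks at the means of 3 libraries. In all 10 rows the Ag+ points lie right of the CK points. The genes were picked among those called higher in Ag+, so this pattern follows from the choice.

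Class III peroxidases, secreted enzymes that make or use hydrogen peroxide in the wall, changed in both directions. Of 55 tested, 4 rose and 2 fell (10.9% called, median -0.18), and no removal of 1 library moved the count by over 1.5 times. AT5G51890 had 78.4, 74.7 and 64.5 CPM in Ag+ 1 to 3, against 36.5, 38.2 and 33.2 CPM in CK 1 to 3. AT5G51890 rose 2.01-fold (log2 fold change 1.01, SE 0.12, adjusted p 0.00205). AT5G64110 had 7.96, 6.22 and 6.45 CPM in Ag+ 1 to 3, against 16.5, 17.8 and 18.6 CPM in CK 1 to 3. AT5G64110 fell 2.57-fold (log2 fold change -1.36, SE 0.15, adjusted p 0.0015). PRXCA and PRXCB are neighbouring copies known from the oxidative burst of defence, and they moved apart. PRXCA had 33.5, 26.1 and 29.5 CPM in Ag+ 1 to 3, against 83.1, 62.7 and 66.3 CPM in CK 1 to 3. PRXCA fell 2.38-fold (log2 fold change -1.25, SE 0.22, adjusted p 0.0115). PRXCB had 642, 305 and 313 CPM in Ag+ 1 to 3, against 177, 162 and 156 CPM in CK 1 to 3. PRXCB rose 2.54-fold (log2 fold change 1.35, SE 0.28, adjusted p 0.0247). PRXCA was not called without Ag+ 2 (adjusted p 0.0628), PRXCB was not called without CK 1, CK 2 or CK 3 (adjusted p 0.0593 to 0.0882), and reads of such similar copies may have been split by the counting.

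Among growth hormones, the called genes of gibberellin and brassinosteroid lay in both directions, and few genes of cytokinin were called. Gibberellin promotes growth by removing DELLA repressors after it binds a GID1 receptor. Of 25 gibberellin genes, 5 rose and 2 fell (28.0%, median 0.13), and the count was 2 without Ag+ 2, 3 without Ag+ 1 and 4 without Ag+ 3, CK 1, CK 2, AgNPs 2 or AgNPs 3. The list summed to 826 to 1045 CPM in Ag+ and 1023 to 1390.2 CPM in CK. RGL3, a DELLA repressor, had 6.004, 7.44 and 5.74 CPM in Ag+ 1 to 3, against 2.13, 1.48 and 2.05 CPM in CK 1 to 3. RGL3 rose 3.38-fold (log2 fold change 1.76, SE 0.25, adjusted p 0.00492). The DELLA repressor GAI rose 1.48-fold, with 60.2 ± 7.85 CPM in Ag+ and 40.5 ± 3.07 CPM in CK (log2 fold change 0.57, SE 0.12, adjusted p 0.0266). GID1B, a receptor, had 13.4, 10.2 and 12.1 CPM in Ag+ 1 to 3, against 24.5, 25.0 and 20.5 CPM in CK 1 to 3. GID1B fell 1.96-fold (log2 fold change -0.97, SE 0.17, adjusted p 0.0126), a call lost without Ag+ 2 (adjusted p 0.0628). The synthesis genes GA20OX1 and GA20OX2 rose 2.79-fold and 2.45-fold, and GA2OX4, which inactivates the hormone, rose 3.66-fold (log2 fold change 1.87, SE 0.45, adjusted p 0.0404, and 0.0698 with the replicate block). GAI was not called without Ag+ 1, Ag+ 2, CK 2, CK 3 or AgNPs 3 (adjusted p 0.0505 to 0.1), GA20OX1 was not called without any 1 of the 9 libraries but AgNPs 1 (adjusted p 0.0526 to 0.151), GA20OX2 was not called without Ag+ 1, Ag+ 2, Ag+ 3, CK 1, CK 2 or AgNPs 2 (adjusted p 0.06 to 0.124), and GA2OX4 was not called without Ag+ 1, Ag+ 2, Ag+ 3, CK 1, CK 3, AgNPs 2 or AgNPs 3 (adjusted p 0.0717 to 0.143).

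Brassinosteroids are steroid hormones of cell expansion. Of 26 genes, 1 rose and 3 fell (15.4% called, median 0.15), and the count was 2 without Ag+ 2, and 7 were called with the replicate block. BEE1, a transcription factor induced early by the hormone, had 3.33, 4.39 and 5.69 CPM in Ag+ 1 to 3, against 18.7, 22.7 and 17.7 CPM in CK 1 to 3. BEE1 fell 4.39-fold (log2 fold change -2.14, SE 0.22, adjusted p 0.000801). Its relative BEE3 had 0.848, 2.94 and 3.58 CPM in Ag+ 1 to 3, against 17.5, 15.5 and 10.9 CPM in CK 1 to 3. BEE3 fell 5.90-fold (log2 fold change -2.56, SE 0.44, adjusted p 0.012), a call lost without Ag+ 2 (adjusted p 0.0503). BRL3, a receptor, fell 2.13-fold, with 13.5 ± 3.73 CPM in Ag+ and 28.7 ± 1.00 CPM in CK (log2 fold change -1.09, SE 0.19, adjusted p 0.0116). CPD, an enzyme of synthesis, had 118, 120.5 and 126 CPM in Ag+ 1 to 3, against 78.7, 88.1 and 64.7 CPM in CK 1 to 3. CPD rose 1.57-fold (log2 fold change 0.65, SE 0.12, adjusted p 0.0162), a call lost without Ag+ 2 or Ag+ 3 (adjusted p 0.0552 to 0.0593).

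Of 24 cytokinin genes, 0 rose and 2 fell (8.33% called, median -0.46), and the count was 0 without Ag+ 2, Ag+ 3, CK 2 or AgNPs 3, 1 without Ag+ 1, CK 1 or AgNPs 2 and 5 without CK 3, and 1 was called with the replicate block. The list summed to 351 to 395 CPM in Ag+ and 367 to 467 CPM in CK, which overlapped. ARR7, a response regulator that damps the signal, had 4.44, 3.72 and 6.57 CPM in Ag+ 1 to 3, against 33.0, 26.0 and 8.44 CPM in CK 1 to 3. CK 3 was far under the other CK libraries, and the 4.58-fold fall (log2 fold change -2.19, SE 0.50, adjusted p 0.0382, and 0.0642 with the replicate block) was lost without Ag+ 1, Ag+ 2, Ag+ 3, CK 1, CK 2 or AgNPs 3 (adjusted p 0.0641 to 0.142). IPT3, a synthesis enzyme, fell 1.71-fold, with 13.5 ± 2.93 CPM in Ag+ and 23.0 ± 3.40 CPM in CK (log2 fold change -0.77, SE 0.18, adjusted p 0.0395, and 0.0527 with the replicate block), and was not called without Ag+ 2, Ag+ 3, CK 1, CK 2, AgNPs 2 or AgNPs 3 (adjusted p 0.0544 to 0.15). AHP1, described above, is a further gene of this pathway that stood outside the list. Of 52 small auxin-up RNA genes, 5 rose and 1 fell (11.5% called), and the count was 2 without Ag+ 1, Ag+ 3 or CK 2 and 3 without Ag+ 2 or CK 1. The rises were SAUR19, SAUR20, SAUR22, SAUR23 and SAUR24, from 2.25-fold to 3.84-fold, near-identical copies whose reads may have been shared. SAUR20 was not called without Ag+ 1, Ag+ 2, Ag+ 3, CK 1, CK 2, AgNPs 2 or AgNPs 3 (adjusted p 0.0584 to 0.118), SAUR22 not without Ag+ 1, Ag+ 2, Ag+ 3, CK 2 or CK 3 (adjusted p 0.0503 to 0.0853), SAUR23 not without Ag+ 1, Ag+ 2, Ag+ 3, CK 1 or CK 2 (adjusted p 0.0599 to 0.0704) and SAUR24 not without Ag+ 1, Ag+ 3, CK 1, CK 2 or AgNPs 2 (adjusted p 0.0564 to 0.113). SAUR19 had 3.46, 2.83 and 2.52 CPM in Ag+ 1 to 3, against 1.09, 0.626 and 0.716 CPM in CK 1 to 3. SAUR19 rose 3.58-fold (log2 fold change 1.84, SE 0.31, adjusted p 0.00912). SAUR36 had 4.31, 3.33 and 4.103 CPM in Ag+ 1 to 3, against 9.92, 16.8 and 11.7 CPM in CK 1 to 3. SAUR36 fell 3.27-fold (log2 fold change -1.71, SE 0.27, adjusted p 0.00763).

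Genes that sense and pass on light signals were mostly higher where they changed. Of 37 tested, 7 rose and 2 fell (24.3%, median 0.25), and the count was 5 without Ag+ 1 or CK 2. PIF4, a phytochrome-interacting factor that drives growth in warmth and shade, had 272, 234 and 174 CPM in Ag+ 1 to 3, against 74.7, 37.0 and 29.7 CPM in CK 1 to 3. All Ag+ values lay above CK, and PIF4 rose 4.80-fold (log2 fold change 2.26, SE 0.33, adjusted p 0.00627). PIF1, which represses germination and greening, rose 1.59-fold, with 42.6 ± 3.37 CPM in Ag+ and 26.9 ± 1.35 CPM in CK (log2 fold change 0.67, SE 0.11, adjusted p 0.0087). PIF3 of the same family went down, with 10.7, 9.61 and 9.73 CPM in Ag+ 1 to 3, against 29.3, 22.3 and 30.2 CPM in CK 1 to 3, a 2.72-fold fall (log2 fold change -1.45, SE 0.18, adjusted p 0.00238). The blue-light receptors PHOT1, PHOT2 and CRY1 rose 2.41-fold, 1.55-fold and 1.69-fold. PHOT1 was not called without Ag+ 1, Ag+ 2 or CK 2 (adjusted p 0.0876 to 0.106), PHOT2 was not called without Ag+ 1, Ag+ 3 or CK 2 (adjusted p 0.0745 to 0.086), and CRY1 was not called without Ag+ 1, Ag+ 2, CK 1, CK 2, CK 3, AgNPs 2 or AgNPs 3 (adjusted p 0.0505 to 0.128). FHL, which helps phytochrome A into the nucleus, rose 4.18-fold, with 3.15 ± 1.22 CPM in Ag+ and 0.751 ± 0.121 CPM in CK (log2 fold change 2.06, SE 0.35, adjusted p 0.0104), and RUP1, a repressor of the ultraviolet-B receptor, fell 2.19-fold, with 5.88 ± 1.19 CPM in Ag+ and 12.9 ± 1.62 CPM in CK (log2 fold change -1.13, SE 0.19, adjusted p 0.0104).

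Enzymes that modify small molecules changed in both directions. Of 147 cytochromes P450, 11 rose and 4 fell (10.2% called, median 0.09), and the count was 6 without Ag+ 2, 7 without Ag+ 1 or Ag+ 3 and 8 without CK 2. CYP71B19 had 19.8, 15.0 and 13.1 CPM in Ag+ 1 to 3, against 5.61, 5.69 and 6.70 CPM in CK 1 to 3. CYP71B19 rose 2.66-fold (log2 fold change 1.41, SE 0.18, adjusted p 0.00244). CYP72A7 had 10.4, 8.28 and 8.21 CPM in Ag+ 1 to 3, against 19.3, 31.4 and 23.2 CPM in CK 1 to 3. CYP72A7 fell 2.75-fold (log2 fold change -1.46, SE 0.23, adjusted p 0.00787). CYP707A2, which breaks down abscisic acid, fell 4.26-fold, with 1.92 ± 0.455 CPM in Ag+ and 8.16 ± 4.18 CPM in CK (log2 fold change -2.09, SE 0.43, adjusted p 0.0229), a call lost without Ag+ 1, Ag+ 2 or Ag+ 3 (adjusted p 0.0704 to 0.0898). Of 99 UDP-glycosyltransferases, 7 rose and 4 fell (11.1% called, median -0.02), and the count was 4 without Ag+ 1, 5 without Ag+ 2 or CK 1, 6 without Ag+ 3 and 7 without CK 2. Besides the UGT85A group, UGT88A1 rose 2.22-fold, with 184 ± 40.4 CPM in Ag+ and 83.0 ± 8.61 CPM in CK (log2 fold change 1.15, SE 0.16, adjusted p 0.00476), and UGT71C2 fell 4.03-fold, with 2.70 ± 0.965 CPM in Ag+ and 10.9 ± 1.88 CPM in CK (log2 fold change -2.01, SE 0.29, adjusted p 0.00542).

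Of 40 MATE efflux carriers, 4 rose and 4 fell (20.0% called, median 0.28), and the count was 3 without Ag+ 1, CK 1 or CK 2, 4 without Ag+ 2 and 5 without Ag+ 3 or AgNPs 2. AT4G23030 had 0.783, 0.389 and 0.762 CPM in Ag+ 1 to 3, against 4.81, 4.27 and 3.43 CPM in CK 1 to 3. AT4G23030 fell 6.46-fold (log2 fold change -2.69, SE 0.30, adjusted p 0.00145). AT2G04100 had 10.7, 9.33 and 8.27 CPM in Ag+ 1 to 3, against 3.67, 2.73 and 4.501 CPM in CK 1 to 3. AT2G04100 rose 2.59-fold (log2 fold change 1.37, SE 0.22, adjusted p 0.00784). EDS5, a carrier of the pathway to the defence hormone salicylate, had 6.59, 4.33 and 7.21 CPM in Ag+ 1 to 3, against 12.6, 9.62 and 14.0 CPM in CK 1 to 3. EDS5 fell 2.00-fold (log2 fold change -0.997, SE 0.21, adjusted p 0.0247), a call lost without Ag+ 1, Ag+ 2 or CK 1 (adjusted p 0.0664 to 0.0737). Of 56 ABC transporters, 0 rose and 2 fell (3.57%, median -0.09), and no removal of 1 library moved the count by over 1.5 times. Both falls were in the G group, ABCG4 (4.07-fold, log2 fold change -2.03, SE 0.24, adjusted p 0.00179) and ABCG5 (1.85-fold, log2 fold change -0.89, SE 0.15, adjusted p 0.00912).

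Sugar transporters changed in both directions. Of 19 tested, 4 rose and 2 fell (31.6%, median 0.43), and the count was 3 without Ag+ 1, Ag+ 2 or CK 2. SWEET13, a sucrose exporter that feeds the phloem, had 4.24, 2.89 and 2.23 CPM in Ag+ 1 to 3, against 0, 0.114 and 0.102 CPM in CK 1 to 3. It was nearly undetected in CK, with 0, 2 and 2 counts, so its 40.5-fold rise (log2 fold change 5.34, SE 0.63, adjusted p 0.00185) rests on few reads there. SWEET17, which moves fructose across the vacuole membrane, had 42.9, 44.4 and 36.8 CPM in Ag+ 1 to 3, against 21.1, 14.6 and 22.6 CPM in CK 1 to 3. SWEET17 rose 2.13-fold (log2 fold change 1.09, SE 0.18, adjusted p 0.00926). SWEET1, a glucose carrier, had 3.79, 7.44 and 8.56 CPM in Ag+ 1 to 3, against 14.5, 17.9 and 22.7 CPM in CK 1 to 3. SWEET1 fell 2.77-fold (log2 fold change -1.47, SE 0.30, adjusted p 0.0227), a call lost without Ag+ 1, Ag+ 2 or CK 2 (adjusted p 0.0501 to 0.0754). In starch breakdown 2 of 22 genes rose and 0 fell (9.09% called, median 0.28), and the count was 0 without Ag+ 3 or CK 1 and 1 without Ag+ 1, Ag+ 2 or CK 2. They were LSF1 (1.57-fold, log2 fold change 0.65, SE 0.13, adjusted p 0.0192) and LSF2 (1.64-fold, log2 fold change 0.71, SE 0.15, adjusted p 0.0228), relatives of the phosphatase that prepares starch for breakdown. LSF1 was not called without Ag+ 1, Ag+ 3 or CK 1 (adjusted p 0.0594 to 0.0672), and LSF2 was not called without Ag+ 2, Ag+ 3, CK 1, CK 2 or CK 3 (adjusted p 0.0523 to 0.0907). TPPB, a trehalose phosphate phosphatase, was the 1 called gene of 9 trehalose phosphate enzymes (11.1% called). TPPB fell 3.33-fold (log2 fold change -1.74, SE 0.38, adjusted p 0.0287), a call lost without Ag+ 1, Ag+ 2, Ag+ 3 or CK 3 (adjusted p 0.058 to 0.107).

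Among lipid genes, 4 of 61 lipid transfer proteins rose and 4 fell (13.1% called, median 0.11), and the count was 4 without Ag+ 2 and 5 without CK 1. LTP6 had 77.2, 98.4 and 80.9 CPM in Ag+ 1 to 3, against 35.4, 33.9 and 36.4 CPM in CK 1 to 3. LTP6 rose 2.43-fold (log2 fold change 1.28, SE 0.12, adjusted p 0.000652). LP1 had 1101, 1407 and 1170.1 CPM in Ag+ 1 to 3, against 591, 551 and 577 CPM in CK 1 to 3. LP1 rose 2.14-fold (log2 fold change 1.10, SE 0.14, adjusted p 0.00238). DIR1, a lipid carrier of systemic acquired resistance, had 13.8, 17.7 and 13.9 CPM in Ag+ 1 to 3, against 46.1, 39.5 and 22.3 CPM in CK 1 to 3. DIR1 fell 2.37-fold (log2 fold change -1.25, SE 0.24, adjusted p 0.0177), a call lost without Ag+ 1, Ag+ 2, Ag+ 3, CK 1 or CK 2 (adjusted p 0.0503 to 0.0763). Of 55 GDSL lipases, 8 rose and 2 fell (18.2%, median 0.12), and the count was 2 without Ag+ 2, 3 without CK 1 and 4 without Ag+ 1, Ag+ 3 or CK 2. AT1G28660 had 34.5, 35.4 and 35.1 CPM in Ag+ 1 to 3, against 82.0, 99.7 and 72.5 CPM in CK 1 to 3. AT1G28660 fell 2.42-fold (log2 fold change -1.28, SE 0.13, adjusted p 0.000723). Of 34 wax and cutin genes, 2 rose and 0 fell (5.88% called, median -0.02), and the count was 1 without Ag+ 1, Ag+ 3 or CK 2. That share was close to the 5.57% of all genes tested. DCR, needed to build cutin, had 118, 128 and 134 CPM in Ag+ 1 to 3, against 75.9, 69.6 and 66.9 CPM in CK 1 to 3. DCR rose 1.79-fold (log2 fold change 0.84, SE 0.11, adjusted p 0.00378), and CER1, needed for wax alkanes, rose 2.21-fold (log2 fold change 1.14, SE 0.22, adjusted p 0.0195), a call lost without Ag+ 1, Ag+ 3 or CK 2 (adjusted p 0.0625 to 0.0737).

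The few called genes for protective solutes and drought proteins rose in Ag+. Of 7 genes of proline and raffinose synthesis, 3 rose and 0 fell (42.9% called, median 0.33), and the count was 1 without Ag+ 2. P5CS1, which makes proline under stress, had 25.3, 27.2 and 15.7 CPM in Ag+ 1 to 3, against 8.68, 8.82 and 7.47 CPM in CK 1 to 3. P5CS1 rose 2.72-fold (log2 fold change 1.45, SE 0.25, adjusted p 0.0107), a call lost without Ag+ 2 (adjusted p 0.0506). GOLS3, a galactinol synthase of the cold response, had 3.20, 1.72 and 3.05 CPM in Ag+ 1 to 3, against 0, 0.0569 and 0.256 CPM in CK 1 to 3. GOLS3 rose 23.8-fold (log2 fold change 4.57, SE 0.72, adjusted p 0.00752). Of 58 late embryogenesis abundant proteins, which protect drying cells, 5 rose and 0 fell (8.62% called, median 0.30), and the count was 0 without Ag+ 2 or CK 2, 2 without Ag+ 1, CK 1, AgNPs 2 or AgNPs 3 and 9 without AgNPs 1. The whole family summed to 1518 to 1904 CPM in Ag+ and 1691 to 2050.3 CPM in CK, which overlapped, with a mean lower in Ag+. Besides RAB18, the called members were AT1G72100, AT3G15670, AT3G53040 and AT4G21020. None of these was above 3.00 CPM in an Ag+ library or above 0.153 CPM in a CK library, so their rises rest on few reads. In each of them Ag+ 2 was the highest of the Ag+ libraries. RAB18, a dehydrin induced by abscisic acid, had 12.5, 10.6 and 3.87 CPM in Ag+ 1 to 3, against 2.48, 1.48 and 1.69 CPM in CK 1 to 3. RAB18 rose 4.73-fold (log2 fold change 2.24, SE 0.43, adjusted p 0.0183), a call lost without Ag+ 1, Ag+ 2 or CK 2 (adjusted p 0.0643 to 0.0744). In the use of seed oil, 2 of 18 genes rose and 0 fell (11.1% called, median 0.19), and the count was 0 without Ag+ 1, Ag+ 2, CK 1 or CK 2 and 1 without Ag+ 3, CK 3, AgNPs 2 or AgNPs 3. ICL, isocitrate lyase of the glyoxylate cycle, had 43.8, 60.7 and 23.3 CPM in Ag+ 1 to 3, against 15.6, 15.3 and 16.8 CPM in CK 1 to 3. ICL rose 2.68-fold (log2 fold change 1.42, SE 0.29, adjusted p 0.0244), a call lost without Ag+ 1, Ag+ 2, CK 1 or CK 2 (adjusted p 0.0673 to 0.0863). The seed transcripts TIP3;1 and PER1 moved with these genes, and their part in the counts was not tested.

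Of 20 carotenoid genes 2 rose, with 0 falls (10% called, median 0.13), and the count was 1 without Ag+ 1, Ag+ 2, CK 2, CK 3, AgNPs 2 or AgNPs 3 and 4 without AgNPs 1. CCD4, which cleaves carotenoids, had 80.6, 59.999 and 55.4 CPM in Ag+ 1 to 3, against 9.33, 6.77 and 13.8 CPM in CK 1 to 3. CCD4 rose 6.54-fold (log2 fold change 2.71, SE 0.25, adjusted p 0.000606). NAC2, a NAC factor, had 13.1, 8.72 and 10.7 CPM in Ag+ 1 to 3, against 2.18, 2.05 and 2.1995 CPM in CK 1 to 3. NAC2 rose 5.04-fold (log2 fold change 2.33, SE 0.21, adjusted p 0.000531), in a family of which 2 of 62 rose and 2 fell (6.45% called, median -0.02), and the count was 2 without CK 2. Of 29 proteins annotated as germin-like or as RmlC-like cupins, 5 rose and 2 fell (24.1% called, median 0.14), and the count was 3 without CK 2 and 4 without Ag+ 1 or Ag+ 2. Most of the called members, CRA1 among them, carried only the cupin annotation, so the count does not describe germin-like proteins alone. GER2 had 0.131, 0.444 and 0.352 CPM in Ag+ 1 to 3, against 2.43, 2.50 and 3.12 CPM in CK 1 to 3. GER2 fell 8.40-fold (log2 fold change -3.07, SE 0.48, adjusted p 0.00709). Of 51 Integrase-type DNA-binding factors, a family added after its values had been seen, 1 rose and 6 fell (13.7% called, median -0.05), and the count was 4 without Ag+ 2. Leaf growth and polarity genes had 2 rises and 1 fall among 29 (10.3% called, median 0.16), and the count was 0 without Ag+ 1, Ag+ 2, CK 1, CK 2, AgNPs 2 or AgNPs 3 and 1 without Ag+ 3 or CK 3. They were AN3 and GRF3, which promote leaf cell division, at 1.57-fold and 1.501-fold, and GRF8, which fell 3.92-fold (log2 fold change -1.97, SE 0.49, adjusted p 0.0455, and 0.0857 with the replicate block). AN3 was not called without any 1 of the 9 libraries but AgNPs 1 (adjusted p 0.0532 to 0.128), GRF3 was not called without Ag+ 1, Ag+ 2, CK 1, CK 2, CK 3, AgNPs 2 or AgNPs 3 (adjusted p 0.0658 to 0.128), and GRF8 was not called without any 1 of the 9 libraries (adjusted p 0.0516 to 0.157). Pectin methylesterases and inhibitors had 2 rises and 2 falls among 45 (8.89% called), and the count was 0 without Ag+ 1, 1 without Ag+ 2 and 2 without Ag+ 3, CK 1, CK 2, AgNPs 2 or AgNPs 3. Arabinogalactan proteins had 1 rise and 1 fall among 42 (4.76% called), and the count was 1 without Ag+ 2, Ag+ 3 or CK 2, and 4 calls with the replicate block. Calmodulin-like proteins had 1 rise and 1 fall among 44 (4.55% called), and the count was 0 without Ag+ 1, Ag+ 2, Ag+ 3, CK 1 or CK 2, 1 without AgNPs 2 or AgNPs 3 and 5 without CK 3.

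Several groups had 0 called genes in edgeR's quasi-likelihood test. Their counts at that test's unadjusted p are a description only, since the share of all genes at that threshold is not given. DESeq2 called 1901 genes in all. Of 305 ribosomal protein genes, with a median log2 fold change of -0.06, 2 were higher and 6 lower in Ag+ at an unadjusted p under 0.05, and 0 were called by DESeq2. The 42 proteasome genes had 0 higher and 1 lower at that unadjusted p, and the 41 histone genes 2 higher and 1 lower. DESeq2 called 0 in both. Starch synthesis had 5 higher and 1 lower of 17 at the unadjusted p, with 1 called by DESeq2. The sugar starvation list had 3 higher and 0 lower of 20, and photorespiration 1 higher and 0 lower of 13, both with 0 in DESeq2. The photorespiration list lacked GLDT, GLDH1, GLDH2, GLDH3, GLYK and PLGG1, which the annotation names otherwise, so its count leaves out part of that pathway. Protein folding in the endoplasmic reticulum had 1 higher and 0 lower of 24, with 0 in DESeq2, and sums of 1993 to 3274 CPM in Ag+ and 2108 to 4427 CPM in CK, CK 3 the highest. Most members of that list leaned the other way, with a median log2 fold change of -0.28, 2 members above 0 and 22 under 0. Zinc genes had 2 higher and 4 lower of 20 at the unadjusted p, 3 called by DESeq2, 1 with the replicate block and up to 4 without CK 3. Stomatal development had 2 higher and 3 lower of 18 at the unadjusted p, with 1 in DESeq2. Root markers had 0 higher and 0 lower of 15, with 0 in DESeq2. In limma voom 0 members of these lists were called.

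**Figure D5:**
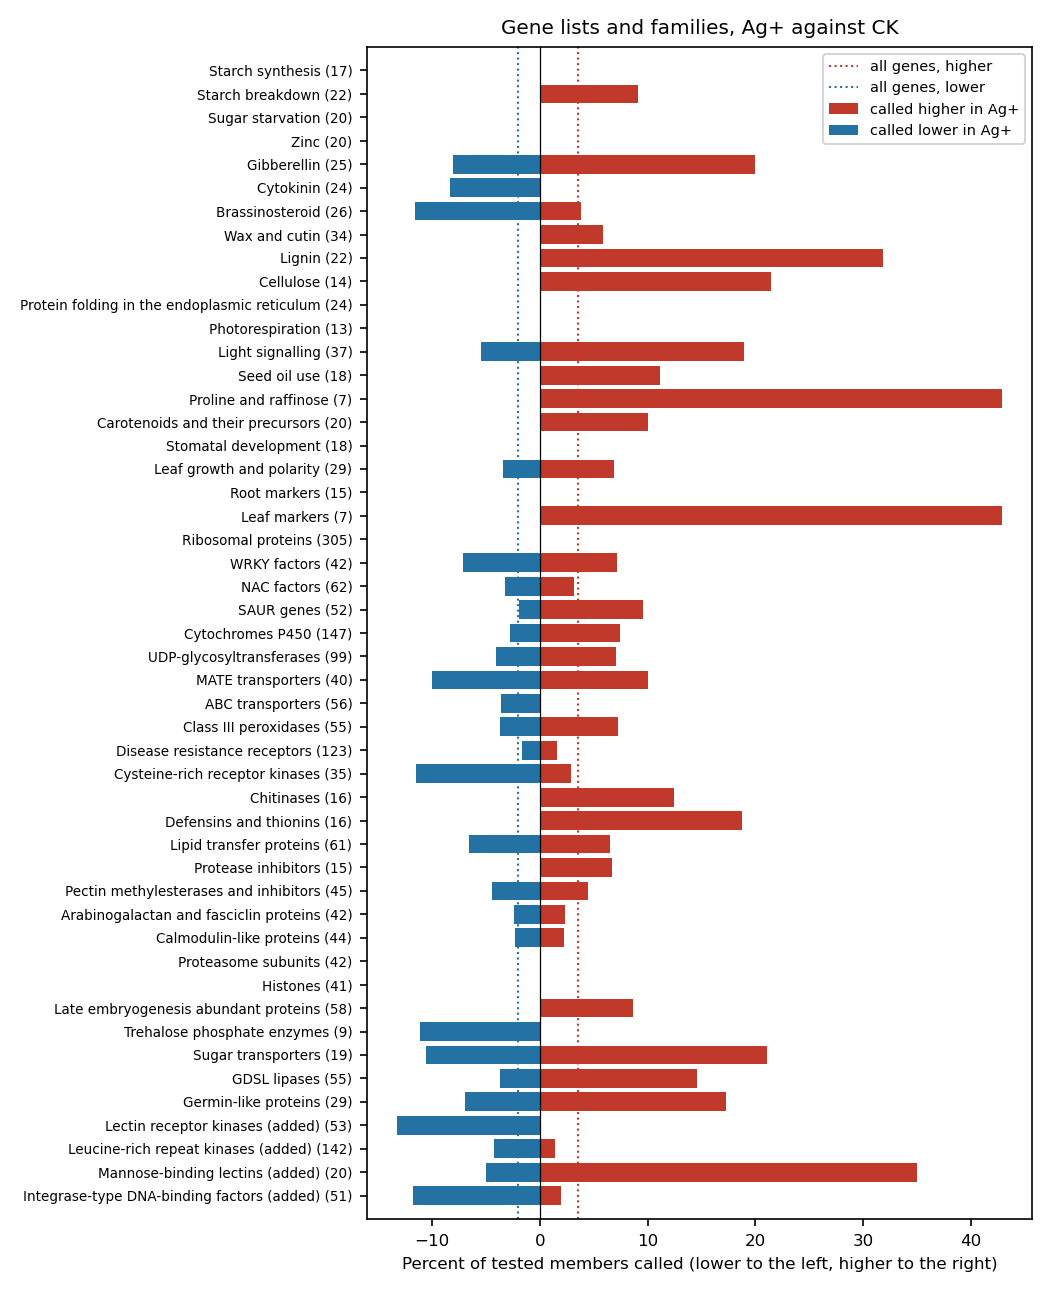
Percent of the tested members of each gene list or family that were called higher (red, to the right of 0) or lower (blue, to the left) in Ag+ than in CK, with the number tested in brackets. Dotted lines mark the same shares over all genes tested, 3.52% higher and 2.05% lower, and lists marked as added were chosen after their values had been seen. The row of germin-like proteins takes in other RmlC-like cupins.

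Leaf markers were themselves not level between the groups, since 3 of 7 rose (LHCB1.3, GL1 and PORC, of which GL1 had an adjusted p of 0.0743 with the replicate block) and 0 fell (42.9% called). The count was 0 without CK 2 and 1 without Ag+ 1, Ag+ 2, Ag+ 3, CK 1, CK 3, AgNPs 2 or AgNPs 3. PORC, an enzyme of chlorophyll synthesis, had 211, 205 and 207 CPM in Ag+ 1 to 3, against 140.5, 133 and 129 CPM in CK 1 to 3. PORC rose 1.54-fold (log2 fold change 0.63, SE 0.11, adjusted p 0.0133), a call lost without CK 2 (adjusted p 0.0564). By chromosome, the called share ran from 5.03% of the tested genes of chromosome 3 to 6.12% of those of chromosome 2. By annotation, 693 protein-coding genes rose and 400 fell, out of 19114 tested (5.72%), and 3 long non-coding RNA genes rose and 1 fell, out of 240 (1.67%).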

How the data were processed

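The deposited table holds raw read counts per gene for 9 leaf libraries, in whole numbers that the authors made from their RNA-seq reads. The submitters' processing notes name the aligner HISAT2 and the genome build TAIR10, and no source used here gives the versions, the counting tool or its strand setting, so overlapping and antisense genes cannot be told apart. Gene names came from RefSeq's TAIR10.1 annotation, which matched 37751 of 38202 IDs and left 451 unmatched. Its chromosomes and start positions served to order the genes for the runs of neighbours and to count calls by chromosome. Counts were filtered with filterByExpr, scaled by TMM and fitted with edgeR 4.0.16 (R 4.3.3, robust quasi-likelihood, 9 libraries in 3 groups, no block), which was tested on simulated data. The adjusted p covers all 19889 genes tested, and the biological coefficient of variation was 22.5%. The SE of a log2 fold change was taken from the test's F value.

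The named genes were the 10 highest and 10 lowest log2 fold changes and the 6 largest gains and losses of mean CPM among called, non-overlapping genes, outside genes already named in an earlier account, then up to 4 called members of each list with the smallest adjusted p, members needed to describe a role, and runs of at least 3 neighbours. Members and lists were chosen with earlier results of these data known, and 4 families were added, and the wording that picked 3 others corrected, after values were seen. Of 449 list entries, 11 were dropped because symbol and ID did not match the annotation, among them the photorespiration genes named above. 1 gene that the rule named is not reported here.

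Samples with the same replicate number in Ag+ and CK deviated together across genes, with correlations of 0.123, 0.186 and 0.231, against -0.182 to 0.0488 for unlike numbers. No test was run on these correlations, and the labels do not say what a number stands for, so a pairing is possible but not shown. The main fit left the numbers out, and the replicate block is a further fit that used them. 16 other settings were run, among them upper-quartile and RLE factors, no filter, the 6 libraries alone, DESeq2 1.42.0, limma 3.58.1 with voom, the replicate block and each library left out.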

Additional observations from a re-analysis of the deposited data

Results flagged for a closer look

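Of the 236 genes described or drawn from the lists, 22 differed between Ag+ and AgNPs leaves in the direct contrast of the same fit (edgeR's quasi-likelihood test, adjusted p under 0.05 over all genes tested). They stand here because exposure to ions and exposure to particles gave levels that differed from each other, whatever each did relative to CK, and no explanation was tested. The contrast called 136 of all 19889 genes tested (0.684%). Among the 1108 genes called against CK it called 79, of which 59 were lower. The 236 were picked by calls that rest on the same Ag+ libraries, so their share is a description only. CERK1, CAM2, FLOT1, AT3G07195, AT5G44910 and the lectin, leucine-rich repeat and Integrase-type families were chosen after values had been seen. The numbers below are log2 fold changes of Ag+ over AgNPs.

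Among genes of the cell surface and of defence, the values were -3.97 for CRK39, -1.78 for HLECRK, -2.48 for LECRKA4.1, -2.16 for AT1G61360, -0.96 for CERK1 and -0.87 for AT1G11330, an S-locus lectin kinase. The leucine-rich repeat kinases AT1G51860 and AT4G39270 had -2.32 and -0.78. The immune genes AT3G07195 and AT5G44910 had -2.98 and -2.47, the transcription factor WRKY27 -2.10, and EDS5, a carrier of the salicylate pathway, -1.18. In secretion and at membranes, EXO70H1 had -3.98, EXO70H2 -2.94, FLOT1 -1.73 and SEC1B, a protein of the family that guides vesicle fusion, -1.10. The calmodulin CAM2 had -0.90. The remaining values under 0 were -2.38 for the MATE carrier AT4G23030, -1.21 for the Integrase-type factor AT4G32800 and -1.10 for AT1G27020. UGT85A5, with 0.75, and AT5G38940, a germin-like protein of the cupin superfamily, with 1.22, were the 2 of the 22 that were higher in Ag+ than in AgNPs.

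The AgNPs levels of EXO70H1 were 4.24, 8.32 and 6.39 CPM, against 0.196, 0.444 and 0.528 CPM in Ag+. AT5G38940 had 17.2, 14.2 and 16.6 CPM in Ag+, 9.47, 5.46 and 5.81 CPM in AgNPs and 28.2, 36.1 and 30.0 CPM in CK. In this gene the Ag+ libraries lay above all AgNPs libraries and under all CK libraries.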

How the results depend on the processing

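The count of 1108 called genes was 1901 with DESeq2 (1113 higher and 788 lower), and the cause was not tested. It was 1095 with RLE factors, 1145 with upper-quartile factors, 1078 without the filter, 831 with the 6 libraries alone, 998 with limma voom and 1238 with the replicate block, which shared 966 genes with the 1108. With 1 library left out it ran from 419 to 1372, and the 678 calls at 2-fold or more ran from 327 to 806, where each such fit has fewer libraries. No fold change of the 236 genes examined turned round under any setting. Of the 236 calls, DESeq2 kept 236, upper-quartile factors lost 2, RLE factors 5, no filter 14, the replicate block 27, limma voom 38 and the 6 libraries alone 58 of the 230 it tested. Of the 49 list counts, DESeq2 moved 20 by over 1.5 times, the 6 libraries alone 14, limma voom 7, the replicate block 4 and RLE factors 1. The 4 moved by the block are given with their lists, and it changed no call against CK of the genes described beyond those given beside them. Leaving out 1 library lost 709 of 2124 calls.

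Precision is limited by 3 libraries a group, by pooled RNA of unstated origin and by depth in genes under 1 CPM, where a CK level can rest on a few reads.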
